A study of Mus musculus with 4 samples.

Results

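The Fc gamma receptors and their common gamma chain were followed in 4 RNA-sequencing libraries of mouse peritoneal macrophages. The genes were taken by name from the deposited tables, through their NCBI gene identifiers: Fcgr1, Fcgr3 and Fcgr4 (activating receptors), Fcgr2b (the inhibitory receptor) and Fcer1g (the common gamma chain), 5 of 16403 genes listed in at least 1 library. All 5 were listed in every library. The macrophages came from C57BL/6 mice of 6 to 8 weeks, were elicited with 4% thioglycolate for 4 days, adhered for 4 h and were kept in 0.5% serum. The groups were wild-type nontreat, wild-type given IL-4 (20 ng/mL, 6 h), TIF1a-KO nontreat and TIF1a-KO given the same IL-4. TIF1a is the protein encoded by Trim24, and the TIF1a-KO mice carried floxed Trim24 with Cre recombinase driven by the lysozyme M promoter, which is active in myeloid cells, so that cells outside this lineage keep the gene. The number of mice behind each library, and whether the wild-type mice carried Cre or a floxed allele, are not given in the sources used here.

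Fc gamma receptors bind the constant region of IgG and let macrophages take up and respond to antibody-coated particles. Fcgr1, Fcgr3 and Fcgr4 have no signalling motif of their own in the mouse and pair with the common gamma chain, whose immunoreceptor tyrosine-based activation motif (ITAM) is phosphorylated by Src-family kinases and recruits the kinase Syk. Fcgr2b carries an inhibitory motif (ITIM) in its own tail, binds the same IgG complexes and recruits phosphatases such as SHIP1, so the level of Fcgr2b relative to the activating receptors sets a threshold for the response to IgG. IL-4 drives macrophages toward the M2 state.

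Each group held 1 library, with totals from 11026033 to 11250099 expected reads, so every difference is without a replicate check, and a test on reads compares libraries rather than conditions. In wild-type cells Trim24 had 2.55 (nontreat) and 1.48 FPKM (IL-4), and in TIF1a-KO 0.06 and 0.14 FPKM. The macrophage markers Adgre1 (68.5 to 97.7 FPKM), Csf1r (135.4 to 285 FPKM), Itgam (68.0 to 98.3 FPKM) and Cd68 (3005 to 3465 FPKM) were high throughout. The marker list held 6 genes. Of the others, Mertk was at 22.6 to 35.3 FPKM and Fcgr1, itself a member, at 4.99 to 8.90 FPKM. In such bulk samples fewer cells of a type and less RNA per cell cannot be told apart. FPKM divides reads by transcript length and library total, which allows levels of different genes to be set side by side. Intervals and standard errors stand for counting error only. Reads were not tagged as single molecules, and the division of reads between similar genes adds an error that is not covered.

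Fcgr2b, Fcgr4, Fcgr3 and Fcer1g lie within 273.8 kb of chromosome 1 (GRCm38), in that order. Fcgr2b spans positions 170960558 to 170976071, Fcgr4 171018926 to 171029761, Fcgr3 171051169 to 171065915 and Fcer1g 171229572 to 171234349. Fcgr1 lies apart, on chromosome 3 from 96282909 to 96293969. The genes that RefSeq places within Fcgr3 and Fcgr4 are tRNA, microRNA and small nuclear RNA genes, none of them listed in any library, and no RefSeq gene overlaps the other members.

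Because the members responded differently to IL-4 (below), the RefSeq promoter sequences of the receptors (GRCm38.p6, 250 bases before to 50 after the start, read along the gene) are shown, with matches to 2 motifs in capitals. The motifs, searched on both strands, were TTC and GAA separated by 4 bases (the form STAT6 prefers) and GAGGAA (the core bound by PU.1, the myeloid transcription factor). Fcgr3 has 2 listed promoters whose starts lie within a few bases of each other, and the first is printed.
Fcgr2b, chr1:170976022-170976321, minus strand: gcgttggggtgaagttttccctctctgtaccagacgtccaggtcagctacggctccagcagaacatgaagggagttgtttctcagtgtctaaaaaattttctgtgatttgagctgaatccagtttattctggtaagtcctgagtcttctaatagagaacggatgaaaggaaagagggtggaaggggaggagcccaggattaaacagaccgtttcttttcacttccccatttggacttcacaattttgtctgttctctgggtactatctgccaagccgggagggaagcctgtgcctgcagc
Fcgr1, chr3:96293920-96294219, minus strand: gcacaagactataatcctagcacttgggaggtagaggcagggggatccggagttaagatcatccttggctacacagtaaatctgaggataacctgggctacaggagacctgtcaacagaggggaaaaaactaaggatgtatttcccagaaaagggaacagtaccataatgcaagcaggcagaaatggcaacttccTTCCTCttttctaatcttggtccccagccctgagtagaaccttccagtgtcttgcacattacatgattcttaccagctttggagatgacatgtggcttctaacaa
Fcgr3, chr1:171059354-171059653, minus strand: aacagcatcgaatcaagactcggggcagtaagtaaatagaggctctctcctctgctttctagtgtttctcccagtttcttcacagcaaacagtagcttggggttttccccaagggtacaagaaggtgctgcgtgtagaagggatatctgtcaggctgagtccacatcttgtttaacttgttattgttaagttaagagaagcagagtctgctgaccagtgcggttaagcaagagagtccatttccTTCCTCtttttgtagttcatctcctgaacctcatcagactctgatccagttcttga
Fcgr4, chr1:171018676-171018975, plus strand: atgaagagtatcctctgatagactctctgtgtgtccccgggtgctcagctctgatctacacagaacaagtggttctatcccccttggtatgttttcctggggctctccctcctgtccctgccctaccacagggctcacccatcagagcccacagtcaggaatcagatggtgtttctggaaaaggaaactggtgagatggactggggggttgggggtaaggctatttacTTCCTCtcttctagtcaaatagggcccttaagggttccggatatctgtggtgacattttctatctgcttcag

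The PU.1 core was found 1 time in each of the promoters of Fcgr1, Fcgr3 and Fcgr4, each time as its complement TTCCTC, which begins at positions -55, -6 and -22 relative to the start. No match to either motif was found in the windows of Fcgr2b and Fcer1g. The PU.1 core occurs in 28.3% of 32851 promoters of this length and the STAT6 form, found in no member, in 6.95%. A match of letters is a description and not a measured binding site.

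Without IL-4, Fcer1g was the most abundant of the 5 genes. In wild-type nontreat macrophages its level was 718 FPKM, followed by Fcgr3 at 377, Fcgr2b at 112, Fcgr4 at 36.6 and Fcgr1 at 6.59 FPKM. The TIF1a-KO nontreat library had the same order. With IL-4 Fcgr2b moved to the top in both genotypes, above Fcer1g and Fcgr3, while Fcgr4 and Fcgr1 stayed the lowest. Neighbours in these orders had 95% counting intervals that did not overlap, and their spread between mice is unknown.

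**Figure D1:**
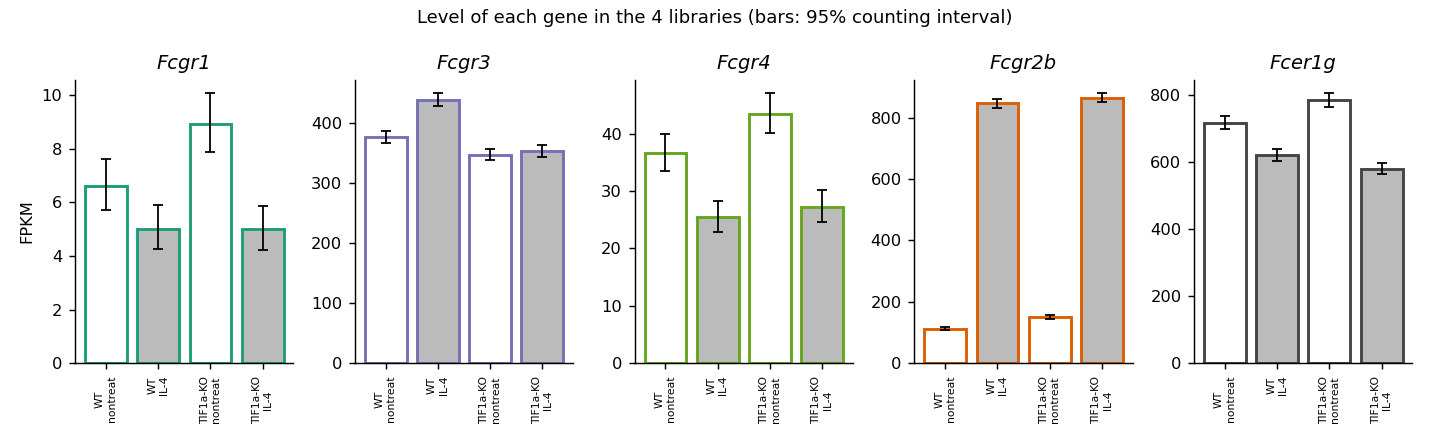
Level of each gene (FPKM, linear axis from 0, 1 panel per gene with its own scale) in the 4 libraries, white bars for nontreat and grey bars for IL-4, with 95% counting intervals (Wilson). Fcgr2b rises from 112 and 149 FPKM to 847 and 865 FPKM, whereas Fcgr1 and Fcgr4 are lower in both IL-4 libraries.

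Fcgr2b, the inhibitory receptor, rose with IL-4 in both genotypes. It was listed at 112 FPKM in wild-type nontreat, 847 in wild-type IL-4, 149 in TIF1a-KO nontreat and 865 FPKM in TIF1a-KO IL-4. Both IL-4 libraries were far above both nontreat libraries, and the values rested on 1752 to 13491 expected reads. The increase was 7.54-fold in wild-type cells, a log2 ratio of 2.91 ± 0.037 (SE, counting error), and 5.79-fold in TIF1a-KO, a log2 ratio of 2.53 ± 0.032. Among genes averaging 1 FPKM or more this was the 67th highest of 10519 log2 ratios in wild-type cells and the 79th highest of 10524 in TIF1a-KO. By FPKM, Fcgr2b moved from place 590 to place 66 among the genes of the wild-type libraries and from place 447 to place 61 in TIF1a-KO.

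A gene was called when its FPKM differed by more than 1.5-fold and the adjusted p of a two-sided Fisher's exact test on reads was under 0.05. By this rule Fcgr2b was the 1 member called with IL-4 in wild-type cells, where 12.8% of all 15593 genes tested were called (4.91% higher and 7.88% lower). In TIF1a-KO 3 members were called, Fcgr2b higher and Fcgr1 and Fcgr4 lower, where 9.32% of 15738 genes were called (5.29% higher and 4.03% lower). Both Fcgr1 and Fcgr4 were also lower in wild-type cells, short of the fold threshold. By the fold alone, among genes averaging 1 FPKM or more, the members past it were as many in each comparison, against 17.5% of genes in wild-type cells and 13.7% in TIF1a-KO. The median log2 IL-4 response of the 5 members was -0.21 in wild-type cells and -0.43 in TIF1a-KO, against -0.0080 and 0.0079 over all genes at that level.

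Of the activating receptors, Fcgr1, the high-affinity receptor known as CD64, was the least abundant. It was listed at 6.59 FPKM in wild-type nontreat, 5.02 in wild-type IL-4, 8.90 in TIF1a-KO nontreat and 4.99 FPKM in TIF1a-KO IL-4, from 143 to 255 expected reads. The IL-4 libraries were the 2 lowest and nearly equal, and the TIF1a-KO nontreat library was the highest. The log2 IL-4 response was -0.39 ± 0.16 in wild-type cells (adjusted p = 0.044, Fisher's exact test) and -0.82 ± 0.15 in TIF1a-KO (adjusted p = 2.3e-07).

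Fcgr4, a receptor for IgG2 subclasses in the mouse, was likewise lower in both IL-4 libraries. It was listed at 36.6 FPKM in wild-type nontreat, 25.5 in wild-type IL-4, 43.4 in TIF1a-KO nontreat and 27.2 FPKM in TIF1a-KO IL-4. The TIF1a-KO nontreat library was again the highest. The log2 IL-4 response was -0.52 ± 0.10 in wild-type cells (1.44-fold lower, adjusted p = 1.1e-06, Fisher's exact test) and -0.67 ± 0.096 in TIF1a-KO (1.59-fold lower, adjusted p = 1.6e-11). With a trend of the libraries over transcript length removed, the wild-type response was -0.66 and Fcgr4 was called there too.

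Fcgr3, a low-affinity receptor known as CD16, made up most of the activating receptor RNA. It was listed at 377 FPKM in wild-type nontreat, 439 in wild-type IL-4, 347 in TIF1a-KO nontreat and 353 FPKM in TIF1a-KO IL-4. The wild-type IL-4 library stood above the other 3. The log2 IL-4 response was 0.22 ± 0.026 in wild-type cells (adjusted p = 6.1e-16, Fisher's exact test) and 0.025 ± 0.028 in TIF1a-KO (adjusted p = 0.65, 95% counting interval -0.030 to 0.081), both far from the fold threshold.

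The values of Fcgr3 and Fcgr2b are uncertain to the extent that the 2 genes share reads. In the GENCODE transcripts that match their RefSeq entries, 166 windows of 50 bases occur in both genes, which is 12.8% of the Fcgr3 windows and 11.7% of those in the shorter Fcgr2b transcript. Fcgr1, Fcgr4 and Fcer1g shared no window with another gene. The expected counts of Fcgr3 and Fcgr2b were not whole, but their sum was whole in every library, at 7326 and 20105 in wild-type cells (nontreat and IL-4) and 7469 and 18713 in TIF1a-KO. The longer of the 2 Fcgr2b transcripts also holds windows found in 145 genes. The sum, which does not depend on this division, was 2.69-fold higher with IL-4 in wild-type cells and 2.51-fold higher in TIF1a-KO, scaled by library total. Between the genotypes it differed by a log2 ratio of 0.029 in the nontreat pair and -0.074 in the IL-4 pair. The mean transcript length deposited for Fcgr2b, weighted over its transcripts, moved only between 1426.00 and 1428.31 bases.

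Fcer1g, the gamma chain that the activating receptors need for surface expression and signalling, was lower with IL-4. It was listed at 718 FPKM in wild-type nontreat, 621 in wild-type IL-4, 784 in TIF1a-KO nontreat and 580 FPKM in TIF1a-KO IL-4. Both IL-4 libraries lay below both nontreat libraries, without reaching the fold threshold. The log2 IL-4 response was -0.21 ± 0.029 in wild-type cells (adjusted p = 1.1e-11, Fisher's exact test) and -0.43 ± 0.029 in TIF1a-KO (adjusted p = 1.1e-48).

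**Figure D2:**
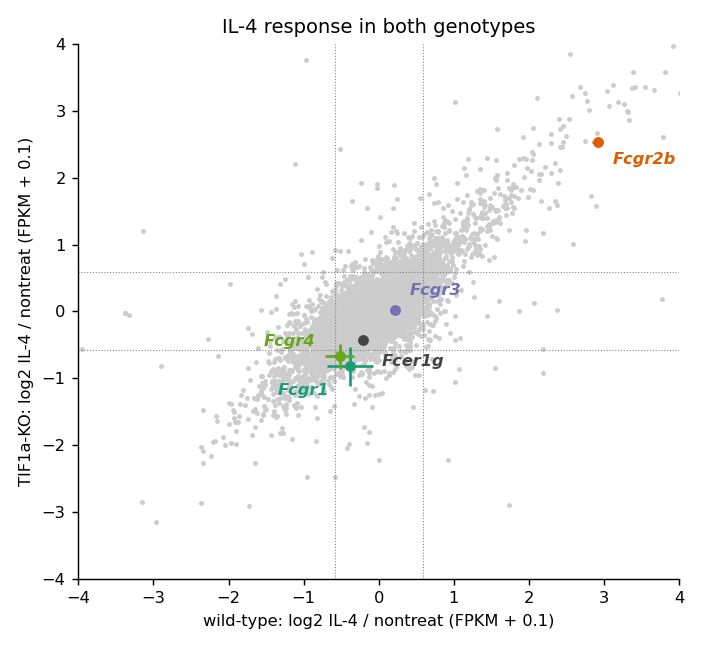
Log2 IL-4 response on the FPKM + 0.1 scale in wild-type cells (x axis) and in TIF1a-KO (y axis), with grey points for genes averaging 1 FPKM or more and coloured points with 95% counting intervals for the 5 members. Dotted lines mark 1.5-fold, and 80 of 10532 genes lie outside the axes. Fcgr2b lies at 2.91 and 2.53, and Fcgr1, Fcgr4 and Fcer1g lie below 0 on both axes.

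To use both genotypes at once, edgeR was fitted to all genes with genotype and treatment as additive terms, which leaves 1 residual degree of freedom. The additive form assumes an equal response to IL-4 in wild-type and TIF1a-KO, and any departure from this is taken as error. For Fcgr2b the departure was -0.39 (TIF1a-KO minus wild-type, log2 counts, below). The model in effect treats the libraries of both genotypes as replicates of a treatment, so its p-values do not measure the spread between mice. Its IL-4 effect was called (adjusted p under 0.05, quasi-likelihood test) for 4 of the 5 members, 1 higher and 3 lower, where 12.0% of 11791 genes were called higher and 13.3% lower. The log2 effects were 2.73 for Fcgr2b (adjusted p = 2.7e-10), -0.61 for Fcgr1 (adjusted p = 0.0065), -0.59 for Fcgr4 (adjusted p = 8.9e-04) and -0.31 for Fcer1g (adjusted p = 0.021). Fcgr3, at 0.13, was not called (adjusted p = 0.31). With DESeq2, and with the filter on low counts left out of edgeR, Fcgr1 (adjusted p = 0.26 and 0.064) and Fcer1g (adjusted p = 0.065 and 0.11) lost their calls.

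The balance of activating to inhibitory receptors was taken as the summed FPKM of Fcgr1, Fcgr3 and Fcgr4 over that of Fcgr2b, a ratio in which the scaling of a library cancels. In wild-type nontreat macrophages activating receptor RNA was 3.74 times that of Fcgr2b, a log2 ratio of 1.90 (95% counting interval, 1.83 to 1.98). In wild-type IL-4 macrophages the order was reversed, with Fcgr2b at 1.80 times the activating receptor RNA, a log2 ratio of -0.85 (-0.89 to -0.81). In TIF1a-KO the ratio went from 2.67 in favour of the activating receptors (log2 1.42, 1.35 to 1.49) to 2.24 in favour of Fcgr2b (log2 -1.17, -1.21 to -1.12). The balance thus changed by -2.76 ± 0.044 with IL-4 in wild-type cells and by -2.58 ± 0.042 in TIF1a-KO on the log2 scale. The excess of activating receptors without IL-4 was that of Fcgr3: with Fcgr3 left out, Fcgr2b exceeded the sum of the others in all 4 libraries, at log2 ratios of -1.38 and -4.80 in wild-type cells (nontreat and IL-4) and -1.55 and -4.75 in TIF1a-KO.

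Fcgr2b made up 21.1% of the summed receptor FPKM in wild-type nontreat, 64.3% in wild-type IL-4, 27.2% in TIF1a-KO nontreat and 69.2% in TIF1a-KO IL-4. The share of Fcgr3 went from 70.8% to 33.3% in wild-type cells and from 63.3% to 28.3% in TIF1a-KO, although its own level differed by at most 1.16-fold within a genotype. The summed receptor FPKM was 532 and 1316 in wild-type cells and 549 and 1251 in TIF1a-KO. The rise of Fcgr2b equalled 93.7% of the rise of this sum in wild-type cells and 102% in TIF1a-KO, where the activating receptors together went from 399.6 to 385.6 FPKM.

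Each activating receptor taken alone moved the same way against Fcgr2b. Fcgr2b exceeded Fcgr4 by 3.07-fold in wild-type nontreat and 33.3-fold in wild-type IL-4, and by 3.45-fold and 31.8-fold in TIF1a-KO. It exceeded Fcgr1 by 17.0-fold and 168.7-fold in wild-type cells and by 16.8-fold and 173-fold in TIF1a-KO. Against Fcgr3, Fcgr2b was the lower gene without IL-4 and the higher with it, by 1.93-fold in wild-type cells and 2.45-fold in TIF1a-KO. Fcer1g RNA per activating receptor RNA was 1.71 and 1.32 in wild-type cells (nontreat and IL-4) and 1.96 and 1.505 in TIF1a-KO. Gamma chain RNA thus stayed above the summed RNA of Fcgr1, Fcgr3 and Fcgr4 in every library. Other receptors that use the chain were not counted in this ratio.

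**Figure D3:**
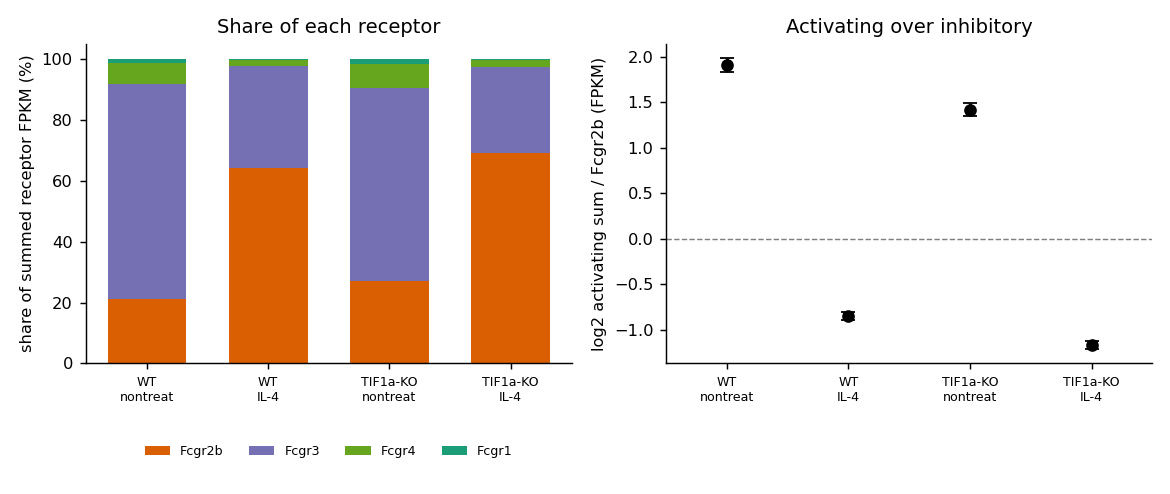
Left, share of each receptor in the summed receptor FPKM (%) of the 4 libraries. Right, log2 of the summed activating receptors over Fcgr2b with 95% counting intervals, where 0 is an equal level: the nontreat libraries lie above 0 (1.90 and 1.42) and the IL-4 libraries below it (-0.85 and -1.17).

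The genotypes were then compared at equal treatment. No member was called without IL-4 (background, 1.58% of 15623 genes) or with IL-4 (3.81% of 15573 genes), and by the fold alone none passed 1.5-fold where 4.21% and 6.75% of genes did. At an adjusted p under 0.05 without regard to fold, Fcgr1, Fcgr3, Fcgr2b and Fcer1g differed between the nontreat libraries, and Fcgr3 and Fcer1g between the IL-4 libraries, by Fisher's exact test. The share of all genes at that threshold was not counted, so this list has no background beside it. It also changed with the length trend removed (exact binomial test). Fcgr4 then passed without IL-4 (adjusted p = 0.028), and with IL-4 Fcgr2b passed (adjusted p = 2.0e-15) and Fcer1g did not (adjusted p = 0.075). Without IL-4, the log2 ratio of TIF1a-KO to wild-type was 0.41 ± 0.046 for Fcgr2b (1.33-fold, adjusted p = 8.1e-18), 0.43 ± 0.14 for Fcgr1 (1.35-fold, adjusted p = 0.030), 0.24 ± 0.088 for Fcgr4 (adjusted p = 0.070), 0.13 ± 0.028 for Fcer1g and -0.12 ± 0.028 for Fcgr3. The median over the members was 0.24 without IL-4 and -0.0085 with it, against -0.0078 and 0.013 over all genes.

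With IL-4 the ratios lay nearer 0 than without it for every member other than Fcgr3. The log2 ratio of TIF1a-KO to wild-type was 0.031 for Fcgr2b (95% counting interval, -0.0031 to 0.066), -0.0085 for Fcgr1 (-0.34 to 0.32), 0.094 for Fcgr4 (-0.12 to 0.30), -0.098 for Fcer1g (-0.16 to -0.037) and -0.31 ± 0.027 for Fcgr3 (1.24-fold lower, adjusted p = 5.8e-30, Fisher's exact test). These values moved with a trend of the pair over transcript length, taken over all genes. With the trend removed the ratio of Fcgr3 became -0.18, that of Fcgr2b 0.15 and that of Fcer1g 0.082, the last with a change of sign. In the additive model no member had a genotype effect (background, 1.66% of genes), with log2 effects from -0.21 (Fcgr3) to 0.24 (Fcgr1). At an unadjusted p under 0.05 there was 1, Fcgr3, and the share of all genes at that threshold was not counted. With the length trend as an offset Fcgr2b was called, at 0.29 (adjusted p = 0.0031, quasi-likelihood test). That setting called 624 genes, against 196 in the main model.

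**Figure D4:**
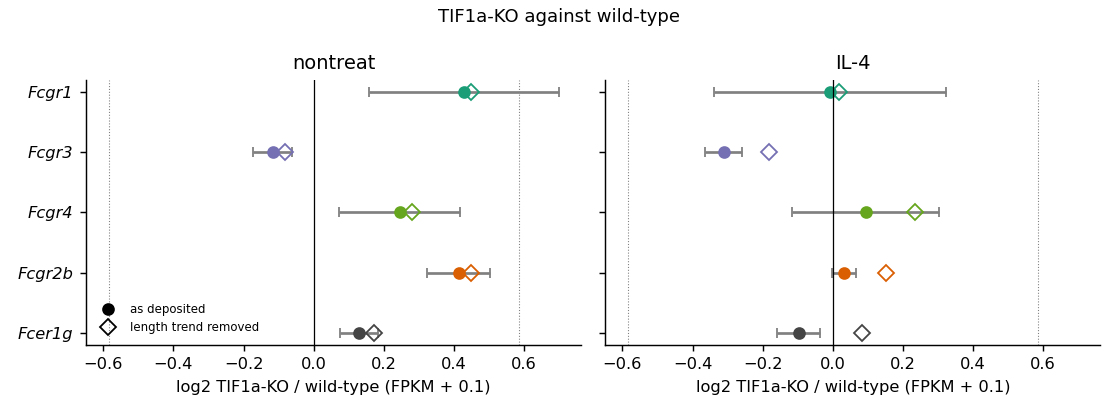
Log2 ratio of TIF1a-KO to wild-type (FPKM + 0.1) for the 5 members without IL-4 (left) and with IL-4 (right), filled circles with 95% counting intervals, and open diamonds after removal of the trend over transcript length. Dotted lines mark 1.5-fold, which none of the circles or diamonds passes.

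The balance leaned more toward Fcgr2b in TIF1a-KO than in wild-type cells, by a log2 difference of -0.49 ± 0.053 without IL-4 and -0.31 ± 0.031 with IL-4. Both differences were much smaller than the change with IL-4. The second rests on Fcgr3, which shares reads with Fcgr2b: with Fcgr3 left out of the sum it was 0.047, of the opposite sign, and the first was -0.14. Without Fcgr3 the sum rests on 143 to 255 reads of Fcgr1 and 354 to 591 reads of Fcgr4 per library. No counting interval is given for these values, so the sign of the second is uncertain. The change of the balance with IL-4 differed between the genotypes by 0.17 (95% counting interval, 0.051 to 0.29).

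The IL-4 responses of the genotypes were compared directly, as the difference TIF1a-KO minus wild-type on log2 counts against counting error. No member passed both an adjusted p of 0.05 and 1.5-fold (background, 2.89% of 11664 genes). All 5 differences were negative. The difference was -0.39 for Fcgr2b (95% counting interval, -0.48 to -0.29, adjusted p = 4.2e-13), -0.23 for Fcer1g (-0.31 to -0.15, adjusted p = 1.7e-06), -0.20 for Fcgr3 (-0.27 to -0.12, adjusted p = 1.5e-05), -0.44 for Fcgr1 (-0.87 to -0.014, adjusted p = 0.19) and -0.15 for Fcgr4 (-0.42 to 0.12, adjusted p = 0.57). With the length trend removed only the difference of Fcgr2b, -0.30, kept an adjusted p under 0.05 (1.1e-07). The differences share the same 4 libraries, and for Fcgr2b, Fcgr1 and Fcgr4 the TIF1a-KO nontreat level was above the wild-type one while the IL-4 levels were close.

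Other cells of the peritoneum carry members of the family, for example Fcgr2b in B cells, Fcgr3 in NK cells and Fcer1g in mast cells. The markers of such cells were therefore listed beside these results. The 5 B-cell markers other than Cd22 summed to 6.52 and 5.77 FPKM in wild-type cells (nontreat and IL-4) and 5.07 and 4.23 FPKM in TIF1a-KO, lower with IL-4 in each genotype, the opposite of Fcgr2b. Cd22, also counted below among the ITIM receptors, was at 30.2 to 39.1 FPKM, and Pax5 was at 0 to 0.23 FPKM. The 5 NK markers summed to at most 0.24 FPKM, with no read of Klrd1 in any library. Of the mast-cell markers Fcer1a had no read in any library and the 6 summed to 2.59 to 5.99 FPKM. The 5 T-cell markers summed to 0.94 to 1.99 FPKM. The neutrophil list summed to 7.58 to 11.2 FPKM, with S100a9, Ly6g, Retnlg and Ngp at 0, the eosinophil list to 1.06 to 2.04, the dendritic-cell list to 2.51 to 2.75 and the mesothelial and fibroblast list to 8.71 to 20.0 FPKM. The part of these cells in the results was not tested. A count of 0 allows up to 3 reads, or 0.267 to 0.272 CPM.

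The genes whose levels followed the members most closely over the 4 libraries were taken as those with the smallest Euclidean distance of centred log2(FPKM + 0.1), among 5431 genes averaging 10 FPKM or more and for the 3 members whose highest level exceeded the lowest by more than 1.5-fold. For Fcgr2b these were Pdia4 (distance 0.24), an endoplasmic reticulum disulfide isomerase, Smap2 (0.30), an Arf GTPase-activating protein, and Gda (0.34), which encodes guanine deaminase. Pdia4 went from 31.7 to 214 FPKM in wild-type cells and from 34.3 to 202 FPKM in TIF1a-KO. For Fcgr4 they were Map3k8 (0.029), a kinase of the MAP kinase cascade, Cd300a (0.083), an ITIM receptor, and Edem2 (0.084), an endoplasmic reticulum mannosidase-like protein. For Fcgr1 they were Map3k8 (0.14), Fcgr4 itself (0.15) and Tmem86a (0.17). Fcgr4 was thus among the genes closest to Fcgr1 in pattern, although they lie on different chromosomes. The distances from Fcgr1 are about the size of the counting error of its log2 ratios (SE 0.14 to 0.17), so their order is uncertain.

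The wider Fc receptor pathway was covered by 6 lists with 104 names, of which 98 had a read. With IL-4, 29 of these 98 genes were called in wild-type cells (8 higher, 21 lower) and 22 in TIF1a-KO (6 higher, 16 lower), that is 29.6% and 22.4% where 12.8% and 9.32% of all genes tested were called. For the 83 genes averaging 1 FPKM or more the median log2 IL-4 response was -0.29 in wild-type cells and -0.22 in TIF1a-KO, both below those over all genes. Between the genotypes 2 of the 98 (2.04%) were called without IL-4 and 3 (3.06%) with IL-4, shares near those of 1.58% and 3.81% over all genes tested. These genes are named after their values were seen. Cblb, a ubiquitin ligase that restrains Syk-dependent signalling, was called higher in TIF1a-KO in both pairs (log2 0.60 and 0.67), with IL-4 also Cbl (0.68), its relative, and the kinase Src (0.86), and Clec4e was called lower without IL-4 (-0.76). With the length trend removed the calls of Clec4e and Src were kept, whereas Cblb lost both its calls (0.57 and 0.39) and Cbl its call (0.49).

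Among the 18 kinases and adaptors that act next to the receptors, IL-4 gave 3 higher and 3 lower calls shared by both genotypes. Within a genotype, 4 were called higher and 4 lower in wild-type cells (4.91% and 7.88% over all genes). In TIF1a-KO 3 were called higher and 3 lower (5.29% and 4.03%). Fgr, a Src-family kinase that phosphorylates ITAMs, fell by 0.64 and 0.79 on the log2 scale, from 19.1 and 17.4 FPKM without IL-4. Fyn, a kinase of the same family, rose from 8.22 to 28.9 FPKM in wild-type cells and from 8.22 to 30.1 FPKM in TIF1a-KO. Lat, an adaptor of immunoreceptor signalling, rose from 15.4 to 25.9 and from 14.3 to 24.3 FPKM. Syk, named here after its values were seen, was listed at 110 and 80.1 FPKM in wild-type cells (nontreat and IL-4) and at 116 and 88.6 FPKM in TIF1a-KO, short of the fold threshold.

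Of the 24 effectors of phagocytosis, none was called higher with IL-4 in either genotype by Fisher's exact test, 6 were called lower in wild-type cells and 4 in TIF1a-KO, 3 of them in both. Over all genes 4.91% and 5.29% were called higher and 7.88% and 4.03% lower. Myo1f, a macrophage class I myosin, fell from 245 to 123 FPKM in wild-type cells and from 244 to 134 FPKM in TIF1a-KO. Pik3cb and Pik3cd, catalytic subunits of phosphoinositide 3-kinase, were the others, with log2 ratios of -0.69 and -0.63 in wild-type cells and -0.63 and -0.61 in TIF1a-KO. With the length trend removed Pik3cd lost both calls and Pik3cb, Plcg2 and Wipf1 theirs in wild-type cells, where Myo1e gained a call, higher at 0.70. Plcg2, Wipf1 and Myo1e are named after their values were seen.

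Of the phosphatases and adaptors that act with ITIM receptors, 12 had a read. None was called higher with IL-4, where 4.91% (wild-type) and 5.29% (TIF1a-KO) of all genes were, so that a count of 0 among so few genes is near the background. In the other direction 2 were called lower in each genotype, beside 7.88% (wild-type) and 4.03% (TIF1a-KO) of all genes. They were Ptpn22 in both, Inppl1 in wild-type cells and Ptpn6 in TIF1a-KO. The median log2 response of the 12 was -0.34 in wild-type cells and -0.31 in TIF1a-KO. Inpp5d, which encodes SHIP1, was listed at 36.5 and 28.6 FPKM in wild-type cells (nontreat and IL-4) and at 36.4 and 30.1 FPKM in TIF1a-KO. Ptpn6, which encodes the phosphatase SHP-1, was at 113 and 79.2 FPKM and at 114 and 70.5 FPKM. The responses differed between the genotypes by -0.19 for Ptpn6 (adjusted p = 0.023) and 0.44 for Inppl1 (adjusted p = 3.2e-05) on log2 counts against counting error, both short of 1.5-fold. With the length trend removed these became -0.16 (adjusted p = 0.096) and 0.28 (adjusted p = 0.040). Pag1, an adaptor that recruits the kinase Csk, was the 1 gene of 86 pathway genes tested whose responses differed past both thresholds (background, 2.89%). It was listed at 3.29 and 2.59 FPKM in wild-type cells (nontreat and IL-4) and at 2.88 and 3.43 FPKM in TIF1a-KO, a difference of 0.59 (95% counting interval, 0.25 to 0.93, adjusted p = 0.0079). With the length trend removed it was 0.27 (adjusted p = 0.47). These 5 genes are named after their values were seen.

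Of the 17 ITIM receptors of myeloid cells, 2 were called higher with IL-4 in both genotypes and 2 lower. By genotype these calls were 2 higher and 4 lower in wild-type cells (4.91% and 7.88% over all genes) and 2 higher and 3 lower in TIF1a-KO (5.29% and 4.03%). Lair1, a collagen receptor, rose from 15.0 to 44.3 FPKM in wild-type cells and from 15.8 to 40.8 FPKM in TIF1a-KO, and Cd72, better known from B cells, from 8.86 to 17.9 and from 10.7 to 21.3 FPKM. Clec12a, a C-type lectin, fell from 34.8 to 8.18 and from 40.0 to 10.8 FPKM, and Cd33, a sialic acid-binding lectin, from 17.0 to 8.17 and from 11.7 to 6.99 FPKM. The log2 IL-4 response of Fcgr2b exceeded that of every gene in this list in both genotypes.

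The gamma chain also serves lectins of the Mincle family, and the related adaptor Tyrobp serves many other receptors. In this list 2 of 16 genes with a read were called in both genotypes, both lower. Within a genotype, 1 was called higher and 3 lower in wild-type cells (4.91% and 7.88% over all genes). In TIF1a-KO none was called higher and 3 were called lower (5.29% and 4.03%). Clec4e, which encodes Mincle, fell from 89.0 to 19.2 FPKM in wild-type cells and from 52.7 to 13.5 FPKM in TIF1a-KO, and Clec4d from 287 to 63.2 and from 195 to 50.8 FPKM. Tyrobp, named after its values were seen, was listed at 1455 and 1177 FPKM in wild-type cells and at 1451 and 1144 FPKM in TIF1a-KO, log2 ratios of -0.31 and -0.34 that did not reach the fold threshold. Among the other Fc receptors and Fc-binding proteins, 11 of 13 had a read and 3 averaged 1 FPKM or more. In wild-type cells 1 was called higher and 2 lower, and in TIF1a-KO 1 and 1, beside the same shares over all genes. Fcrls, an Fc receptor-like scavenger receptor also named after its values were seen, rose from 0.32 to 2.77 FPKM in wild-type cells and from 0.36 to 3.97 FPKM in TIF1a-KO, the 1 gene of that list called higher in both. Fcgrt, which encodes the neonatal Fc receptor, was at 9.84 to 12.4 FPKM without a call.

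**Figure D5:**
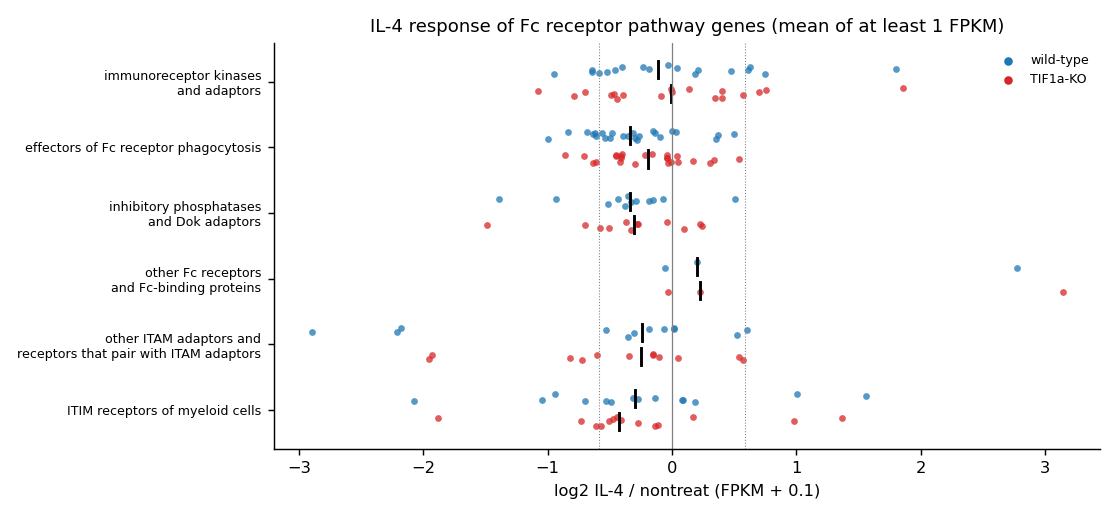
Log2 IL-4 response (FPKM + 0.1) of the genes of the 6 pathway lists averaging 1 FPKM or more, 1 point per gene in wild-type cells (blue) and in TIF1a-KO (red), with black bars at the list medians and dotted lines at 1.5-fold. The median lies below 0 in 5 of the 6 lists in both genotypes, and above 0 in the list of other Fc receptors, which holds 3 genes.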

How the data were processed

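Total RNA of peritoneal macrophages was sequenced in 4 libraries, 1 per group. The authors mapped reads to GRCm38 with Bowtie and quantified RefSeq genes with RSEM (versions not stated). The deposited tables give an expected count per gene (reads assigned by RSEM, not always whole), the authors' FPKM values, and a mean transcript length. A gene absent from a table was given the value 0. Of 16403 gene IDs, 16365 matched a RefSeq symbol (GRCm38.p6) and 38 did not. Whether strand was used in counting is not given in the sources used here.

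The members, lists and tests were chosen with earlier results of these data known. Groups followed the labels. Each pair of libraries was compared over all genes with a read, with Fisher's exact test (two-sided). Expected counts were rounded to integers for it, and p-values were adjusted after Benjamini and Hochberg. A call needed more than 1.5-fold and an adjusted p under 0.05, the fold on the FPKM + 0.1 scale, after the thresholds in the study's methods. The difference of IL-4 responses used log2 of counts plus 0.5 over its counting standard error, for genes with a mean of at least 10 reads. The additive model used edgeR 4.0.16 (TMM, filterByExpr, quasi-likelihood test). Other tools were R 4.3.3, DESeq2 1.42.0, limma 3.58.1, SciPy 1.17.1 and statsmodels 0.14.6. The length trend was taken by lowess (fraction 0.3) of the log2 deviation of a library against log2 transcript length, over genes of at least 200 bases and 1 FPKM. After its removal an exact binomial test replaced Fisher's test. The tests were checked on simulated counts with known changes. These counts held counting error and at most a small added spread, so the check does not cover the spread between mice.

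Named pathway genes were those called in one direction in both genotypes with IL-4 at a mean of at least 5 FPKM, at most 4 per list by mean response. One list name, Sts1, matched no symbol, and Fcer1a, Fcamr, Oscar, Trem3 and Gp6 had no read. A gene that this rule takes, and a motif, are not reported here. Protein sequences were not used here.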

Additional observations from a re-analysis of the deposited data

Results flagged for a closer look

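The IL-4 response of Pag1 differed between the genotypes, by a log2 difference of 0.59 (TIF1a-KO minus wild-type, adjusted p = 0.0079 against counting error), in a test of the difference itself. With the trend over transcript length removed the difference was 0.27 (adjusted p = 0.47), and none of the 5 Fc receptor genes passed the same thresholds.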

How the results depend on the processing

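No paired analysis was possible because each group holds 1 library and the labels carry no replicate numbers. The additive model compares IL-4 with nontreat within each genotype, without a replicate as a block. Leaving out a library was not run, since it would leave that model no residual degrees of freedom. Of 10 alternatives per pair comparison, the number of members called with IL-4 in wild-type cells was 2 in place of 1 with the length trend removed and 0 at 0.4 for the assumed coefficient of variation between mice. In TIF1a-KO it was 1 in place of 3 with a fold above 2 or a coefficient of 0.2, and 0 with 0.4. At 0.4 the adjusted p of Fcgr2b by edgeR's exact test was 0.25 in wild-type cells and 0.70 in TIF1a-KO, so its call rests on a spread between mice below that value, which 4 libraries cannot give. No member was called between the genotypes under any of them. The log2 ratio of Fcgr2b ranged from 2.80 to 2.95 in wild-type cells and from 2.50 to 2.54 in TIF1a-KO over these alternatives.

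The additive IL-4 effect was called for 2 members in place of 4 with DESeq2 and with all genes with a read, and the additive genotype effect for 1 in place of 0 with the length trend as an offset. The change of balance with IL-4 was -3.42 (wild-type) and -3.23 (TIF1a-KO) with Fcgr3 left out and -3.15 and -3.03 by the geometric mean of the activating receptors. The balance difference of TIF1a-KO from wild-type was -0.14 without and 0.047 with IL-4 with Fcgr3 left out, and -0.23 and -0.11 by the geometric mean. Undivided counts changed none of these 4 beyond counting error.

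Pathway genes called with IL-4 ranged from 0 to 29 in wild-type cells (reported 29) and from 0 to 23 in TIF1a-KO (reported 22), with 0 at a coefficient of 0.4, 7 and 5 at 0.2, and 12 and 9 at a fold above 2. Between the genotypes they ranged from 0 to 4 (reported 2 and 3). All genes called ranged from 48 to 2030 (reported 1994) and 33 to 1491 (reported 1466) with IL-4, from 7 to 443 (reported 247) and 11 to 710 (reported 594) between genotypes, and in the additive model from 1229 to 3906 (reported 2987) and 24 to 624 (reported 196). Depth limits Fcgr1 most, with 143 to 255 reads. The causes of these shifts were not tested.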
